A study of Homo sapiens with 12 samples.

Results

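The interaction of 2 drugs, BLU9931 and palbociclib, was measured on the RNA of H520 cells, an established line of human lung squamous cell carcinoma. All 12 libraries of the series entered, 3 for each of 4 groups: control cells, cells given BLU9931 at 1 µM, cells given palbociclib at 1 µM, and cells given both drugs, treated for 72 h. BLU9931 binds irreversibly to FGFR4, a receptor tyrosine kinase for fibroblast growth factors, and blocks it. Palbociclib is an inhibitor of CDK4 and CDK6, kinases that drive cells out of G1 phase. The labels give no vehicle for the control cells and no separate cultures for the 3 libraries of a group, so p-values measure the spread between these libraries, which may be technical. The interaction value of a gene is the log2 fold change of the combination against control minus the sum of the log2 fold changes of the single drugs. It equals the log2 effect of BLU9931 in the presence of palbociclib minus its log2 effect alone. A value of 0 means that the single effects multiply, a negative value that the combination left less RNA than that product, and a positive value that it left more. Of 58174 gene IDs in the table, 20612 had enough counts to be tested, 14580 of them protein-coding.

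CDK4 and CDK6, bound to D-type cyclins, phosphorylate the retinoblastoma protein RB and so release E2F transcription factors, which switch on the genes of DNA replication. Genes needed in G2 phase and mitosis are transcribed later in the cycle by the MuvB complex with MYBL2 and FOXM1, through a promoter element called the cell cycle genes homology region (CHR), and are kept silent in resting cells by MuvB in the DREAM complex. Growth factor receptors such as FGFR4 signal through ERK and PI3K and raise cyclin D.

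The libraries held 21.7 to 35.8 M counts (M, mega), and the mitochondrial share of counts was 12.04 to 15.2%. The libraries control 1 and palbociclib 3 stood apart: their deviations from their group's mean level fell with the GC content of genes (Spearman rho across genes -0.667 and -0.735, against -0.245 to 0.600 in the other 10 libraries). These libraries enter the interaction with opposite signs, so counts are given below with and without them. Squamous markers were only partly present: 5 of 10 were under 1 TPM in every library, with TP63 at most 0.165 TPM, while SOX2 lay between 476 and 592 CPM (each library's counts scaled to a fixed total, with its TMM factor). Markers of leukocytes summed to 3.01 to 6.99 TPM, and 8 of 12 were under 1 TPM in every library.

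The combination left the RNA of a group of genes, many of them genes of mitosis, below the level that multiplying the single effects gives, and a smaller group above it. Of the 20612 tested genes, 270 had a negative interaction (1.31%) and 58 a positive one (0.281%), together 1.59%, at a Benjamini-Hochberg adjusted p under 0.05 in edgeR's quasi-likelihood test. Below, a gene called lower or higher, or said to have a negative or positive interaction, is one that passed this threshold. The median over all tested genes was -0.015 on the log2 scale, and 10573 of the 20612 values were below 0. At least a 2-fold departure was seen in 227 of the 270 and 31 of the 58. By the unadjusted p, 1644 genes were lower and 1293 higher at a p under 0.05. In these bulk samples, fewer cells in a cell cycle phase and less RNA per cell cannot be told apart.

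**Figure D1:**
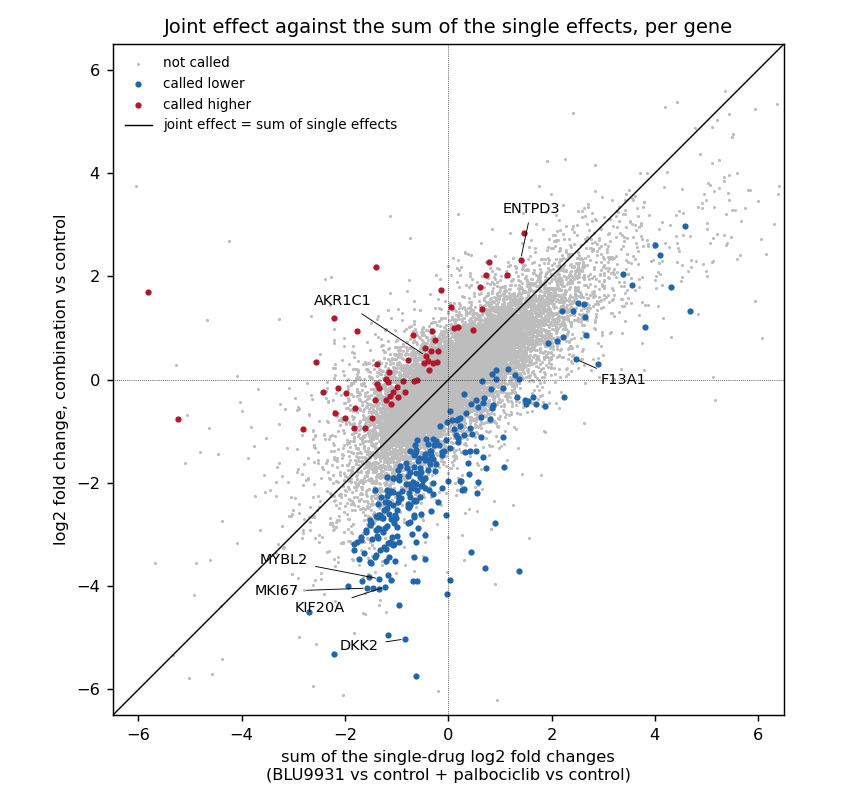
Each point is a tested gene, with the sum of the 2 single-drug log2 fold changes on the x axis and the log2 fold change of the combination against control on the y axis; the diagonal marks effects that multiply, and 49 genes, 3 of them called, lie outside the axes. The 270 genes called lower (blue) lie below the diagonal, most of them at negative values on both axes, and the 58 called higher (red) lie above it.

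The split between lower and higher calls moved most with palbociclib 3, among the fits that left out 1 library. Lower genes made up 82.3% of the calls with all libraries. With palbociclib 3 left out, 600 genes were lower and 386 higher (60.9% lower), and these included all 270 and all 58. With control 1 left out instead, 292 were lower and 45 higher (86.6% lower). With both libraries left out, 1136 were lower and 981 higher (53.7% lower), with 269 of the 270 and 55 of the 58 among them. With an offset for GC content fitted in each library, 941 were lower and 978 higher (49% lower), with 267 and 58 of the original genes among them. DESeq2 on all 12 libraries called 612 lower and 241 higher (71.7% lower).

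**Figure D2:**
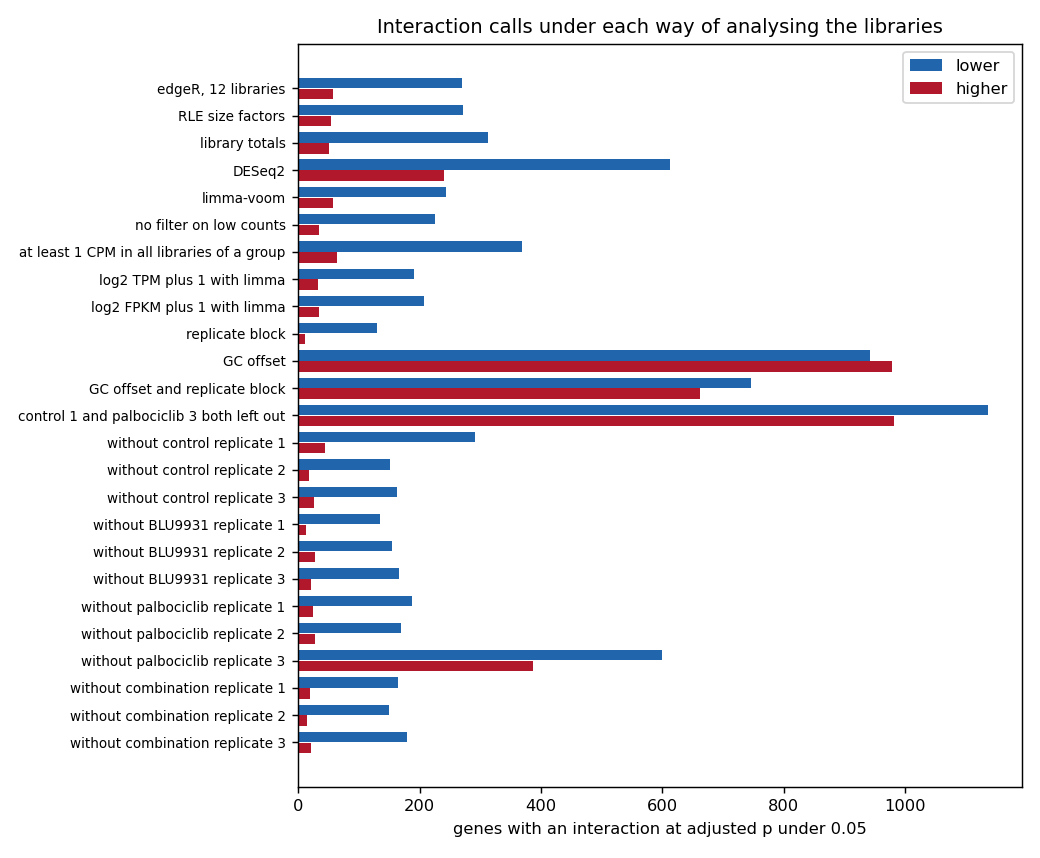
Bars give the number of genes with a negative (blue) and a positive (red) interaction at adjusted p under 0.05 under each way of analysing the libraries. Removing palbociclib 3, removing it with control 1, or a GC offset raised both counts, and the positive count most, from 58 to 386, 981 and 978.

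The genes with a negative interaction had a common shape across the groups. Their median log2 change was 0.175 with BLU9931 alone, -0.813 with palbociclib alone and -2.047 with both. For 164 of the 270, palbociclib alone lowered the gene and adding BLU9931 lowered it again, each by the same test. The backgrounds for these calls over all tested genes were 10.5% lower with palbociclib against control and 2.91% lower in the combination against palbociclib. The share of all tested genes with both calls was not counted. All 3 combination libraries lay below the other 9 in 233 of the 270, against 7.1% of all tested genes. In 119 of the 270 the BLU9931 libraries all lay above the controls, against 15.3% of all tested genes. In 111 of the 270 the BLU9931 libraries all lay above the controls and the combination libraries all below the palbociclib libraries (1.29% of all tested genes). A negative interaction by itself favours these positions, so these counts are a description of the 270 and not a further result. BLU9931 alone called 37 genes in either direction (0.18%), 7 of the 270 among them and each of those higher. On the linear CPM scale the contrast was negative in 269 of the 270.

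Mitotic genes carried most of the listed calls. In 6 lists that cover cyclins A and B with the anaphase-promoting complex, mitotic kinases, kinetochores, kinesins and the spindle, cytokinesis, and condensins with TOP2A and MKI67, 56 of 128 tested genes had a negative interaction (43.8%, against 1.31% of all tested genes) and 0 a positive one. Their median log2 change was -0.095 with BLU9931 alone, -0.883 with palbociclib alone, -1.116 when BLU9931 was added to palbociclib, and -2.001 with both against control. The median interaction was -1.039, and 120 of the 128 values were below 0. The count was 43 to 96 over the 24 alternatives, with 95 when control 1 and palbociclib 3 were left out.

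**Figure D3:**
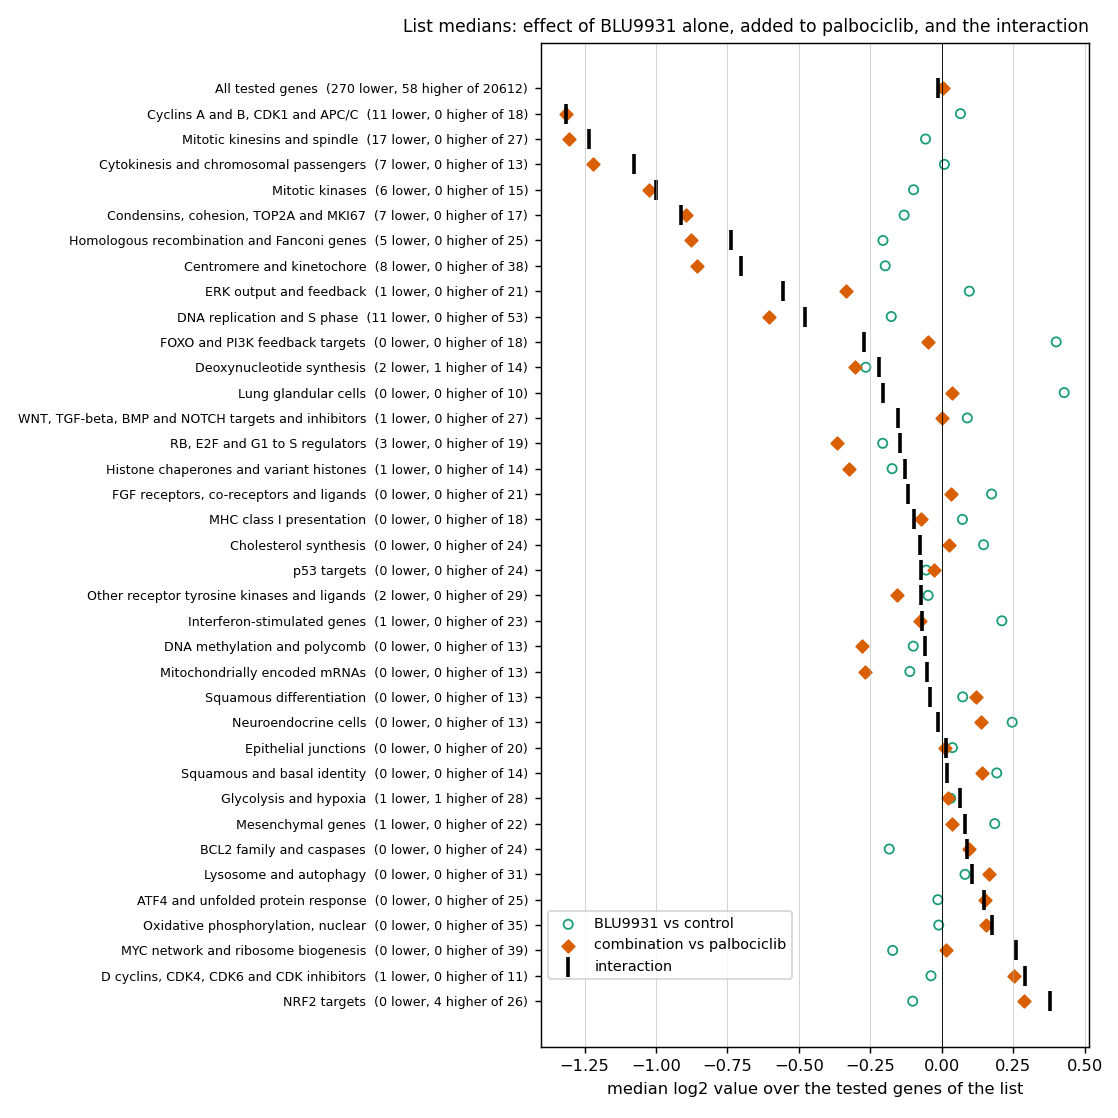
For the 36 lists with at least 10 tested genes and for all tested genes, the x axis gives the median log2 effect of BLU9931 against control (circles), of the combination against palbociclib (diamonds) and their difference, the interaction (bars), and the labels give the genes called lower and higher. In the 6 mitotic lists the circles lie near 0 and the diamonds between -0.857 and -1.316.

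Promoters of some called genes are shown with their motif matches. RefSeq promoters on GRCh38.p14, from 250 bases before to 50 after the start, were matched by symbol to 11837 tested genes (17162 promoters). The search used TTTGAA or TTTAAA for the CHR, CCAAT for the CCAAT box bound by NF-Y, and TTTCGCGC, TTTGGCGC or TTCCCGCC for E2F sites, on either strand. Below, capitals mark these motifs. KIF20A, KIF2C, CDCA3, KIF4A and IQGAP3 are mitotic genes with small p-values and a single listed promoter, and AKR1C1 is the gene with the smallest p among those with a positive interaction.
KIF20A: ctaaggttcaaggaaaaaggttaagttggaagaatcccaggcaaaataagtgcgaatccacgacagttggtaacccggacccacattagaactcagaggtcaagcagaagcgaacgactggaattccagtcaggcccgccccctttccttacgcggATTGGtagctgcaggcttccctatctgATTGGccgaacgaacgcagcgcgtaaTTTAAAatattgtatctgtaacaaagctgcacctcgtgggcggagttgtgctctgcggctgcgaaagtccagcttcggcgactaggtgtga
KIF2C: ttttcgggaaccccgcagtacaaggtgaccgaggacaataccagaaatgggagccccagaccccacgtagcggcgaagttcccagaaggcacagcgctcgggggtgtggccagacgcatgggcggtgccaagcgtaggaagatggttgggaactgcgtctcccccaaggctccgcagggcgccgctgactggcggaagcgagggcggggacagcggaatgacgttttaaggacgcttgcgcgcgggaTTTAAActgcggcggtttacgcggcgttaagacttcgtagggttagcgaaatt
CDCA3: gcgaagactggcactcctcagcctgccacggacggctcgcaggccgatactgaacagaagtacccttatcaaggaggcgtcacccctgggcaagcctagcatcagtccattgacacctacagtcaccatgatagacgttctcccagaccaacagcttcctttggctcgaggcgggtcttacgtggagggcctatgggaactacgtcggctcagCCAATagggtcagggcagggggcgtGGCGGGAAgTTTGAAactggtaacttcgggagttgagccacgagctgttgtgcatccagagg
KIF4A: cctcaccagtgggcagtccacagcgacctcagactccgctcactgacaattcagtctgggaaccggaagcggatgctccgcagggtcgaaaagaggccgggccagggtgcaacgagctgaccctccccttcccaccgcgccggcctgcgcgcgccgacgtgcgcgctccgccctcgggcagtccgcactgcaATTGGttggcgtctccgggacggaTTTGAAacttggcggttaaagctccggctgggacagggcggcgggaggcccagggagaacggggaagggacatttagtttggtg
IQGAP3: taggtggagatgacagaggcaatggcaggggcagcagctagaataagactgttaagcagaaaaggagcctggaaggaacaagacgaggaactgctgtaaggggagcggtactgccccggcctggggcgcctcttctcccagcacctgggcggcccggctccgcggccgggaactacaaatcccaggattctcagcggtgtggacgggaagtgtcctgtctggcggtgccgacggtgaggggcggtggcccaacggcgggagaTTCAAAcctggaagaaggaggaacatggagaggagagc
AKR1C1: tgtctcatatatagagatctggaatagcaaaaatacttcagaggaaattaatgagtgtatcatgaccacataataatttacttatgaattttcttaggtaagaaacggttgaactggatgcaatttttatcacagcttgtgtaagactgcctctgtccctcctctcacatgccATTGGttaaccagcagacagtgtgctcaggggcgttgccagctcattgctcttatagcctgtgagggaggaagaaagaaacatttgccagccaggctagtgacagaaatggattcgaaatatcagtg

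These promoters lie at chr5:138178862-138179161 (plus strand), chr1:44739587-44739886 (plus), chr12:6851237-6851536 (minus), chrX:70289854-70290153 (plus), chr1:156572516-156572815 (minus) and chr10:4963165-4963464 (plus), in the order printed. In KIF20A, 2 inverted CCAAT boxes begin at -94 and -67 and a CHR at -41 from the start. In KIF4A an inverted CCAAT box at -58 precedes a CHR at -34. In CDCA3 a CCAAT box at -37 is followed by an inverted E2F match at -12 and a CHR at -3. KIF2C has a CHR at -3 and IQGAP3 an inverted one at 13, both without the other motifs, and AKR1C1 has an inverted CCAAT box at -77 and no CHR letters in the window. Promoters of CIT, MYBL2 and NEURL1B, also called lower, were picked as well and are not printed. CIT has 2 CHR and 3 CCAAT matches. NEURL1B, which is outside the mitotic lists, has an inverted CHR at -135. MYBL2 has 0 matches to the CHR, CCAAT or E2F letters. The search took only the exact words given above, so variants of these sites were not counted in any promoter.

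A CHR match was present in 44 of 55 promoters (80%) of called genes in the 6 mitotic lists, against 37 of 80 (46.2%) of their members that were not called and 3032 of 17162 (17.7%) of all tested promoters. A CCAAT match was present in 39 of the 55 (70.9%), 48 of the 80 (60%) and 5899 of all (34.4%). Both motifs were present in 33 of the 55 (60%), 25 of the 80 (31.2%) and 6.92% of all. For E2F the shares were 9.09%, 13.8% and 5.97%. Called genes outside the mitotic lists had a CHR match in 50 of 231 promoters (21.6%), and genes with a positive interaction in 7 of 60 (11.7%). These are counts of letters, with no test, and 197 of the 270 and 46 of the 58 called genes had a promoter in the table. The unit is the promoter, so a gene with several promoters counts more than once. The 55 promoters belonged to 49 genes and the 80 to 55 genes, and shares per gene were not counted.

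Among kinesins and spindle genes, 17 of 27 were called lower (median -1.24), the largest share of the 40 lists. KIF20A, a kinesin of the central spindle in anaphase, measured 160.3, 150.3 and 142 CPM in control, 170.4, 156 and 148 with BLU9931, 61.0, 64.2 and 59.7 with palbociclib, and 9.65, 8.18 and 10.2 with both. The BLU9931 and control libraries overlapped, and the combination libraries lay far below all others. Palbociclib lowered KIF20A 2.45-fold and the combination 16.2-fold, and the interaction was -2.79 ± 0.15 (SE, edgeR adjusted p = 8.91e-06). The single effects multiplied would give 64.5 CPM, against a measured mean of 9.34 ± 1.04 (SD, n = 3). KIF20A overlaps BRD8 and CDC23 on the other strand, and the use of strand in counting is not given in the sources used here.

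KIF2C, a microtubule-depolymerising kinesin at centromeres, stood at 348.1, 350.1 and 348.5 CPM in control, at 392, 392.5 and 365 with BLU9931, at 164, 172 and 157 with palbociclib, and at 40.4, 35.8 and 42.4 with both. All BLU9931 libraries lay above the controls, and all combination libraries lay below palbociclib. Its interaction was -2.19 ± 0.12 (edgeR adjusted p = 8.91e-06). KIF4A, a chromosome-bound kinesin, had an interaction of -2.13 (edgeR adjusted p = 5.38e-05), with group means of 120.2, 112, 60.9 and 12.99 CPM for control, BLU9931, palbociclib and both.

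Cyclins, the anaphase-promoting complex and its substrates came next, with 11 of 18 called lower (median -1.32). PTTG1 (securin, which holds separase inactive until anaphase) had an interaction of -2.03, CDCA3, a trigger of mitotic entry, -2.00, and CCNB2 (cyclin B2) -1.38, with edgeR adjusted p-values of 5.38e-05, 3.94e-05 and 0.000413. CDCA3 was 84.7, 95.2 and 99.7 CPM in control, 96.0, 96.6 and 93.4 with BLU9931, 40.1, 36.1 and 39.5 with palbociclib, and 9.88, 9.95 and 9.82 with both. Control and BLU9931 overlapped, and the combination libraries lay below all others.

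Of the mitotic kinases, 6 of 15 were called lower and 14 of 15 values were below 0. AURKB, the kinase of the chromosomal passenger complex, measured 43.7, 51.1 and 56.1 CPM in control, 75.6, 71.6 and 66.2 with BLU9931, 25.4, 26.4 and 15.7 with palbociclib, and 4.08, 4.98 and 4.91 with both. BLU9931 libraries lay above control, yet BLU9931 alone did not pass the test for AURKB (log2 0.50, edgeR adjusted p = 0.248). The interaction of AURKB was -2.77 ± 0.27 (edgeR adjusted p = 0.000392). PLK1, a kinase of mitotic entry and spindle assembly, showed the same order of groups, with means of 155, 204, 74.9 and 24.5 CPM in the order control, BLU9931, palbociclib and both, and an interaction of -2.00 (edgeR adjusted p = 0.000327). NEK2, a kinase of centrosome separation, had an interaction of -1.60 (edgeR adjusted p = 0.00539).

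In cytokinesis 7 of 13 were called lower (median -1.08). IQGAP3, a scaffold of the IQGAP family, had the largest value of the mitotic lists, -3.21 ± 0.23 (edgeR adjusted p = 4.2e-05). It measured 138, 174 and 178 CPM in control, 200.9, 221 and 207 with BLU9931, 89.2, 84.5 and 62.6 with palbociclib, and 10.6, 9.42 and 12.8 with both, with no overlap between any of the 4 groups. CIT (citron kinase, required for abscission) had -1.76 and CDCA8 (borealin) -1.43.

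Condensins, cohesion genes, TOP2A and MKI67 had 7 of 17 called lower (median -0.91). MKI67, which encodes the proliferation antigen Ki-67, stood at 1079, 964 and 1082 CPM in control, 1161, 1203 and 1085 with BLU9931, 311, 358 and 279 with palbociclib, and 74.6, 41.6 and 74.1 with both. The BLU9931 libraries lay just above the controls, and the combination libraries lay below palbociclib. The fall against control was 3.30-fold with palbociclib and 16.4-fold with both, for an interaction of -2.46 ± 0.26 (edgeR adjusted p = 0.000739). TOP2A (topoisomerase II alpha) had -2.02, and NCAPD2 (a condensin I subunit) -1.11. Of kinetochore genes, 8 of 38 were called lower (median -0.70, with 34 values below 0). Among the 8 were CENPA (the centromeric histone H3 variant, -2.30), SPC25 (an NDC80 complex subunit, -2.01) and CENPF (-1.41).

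**Figure D4:**
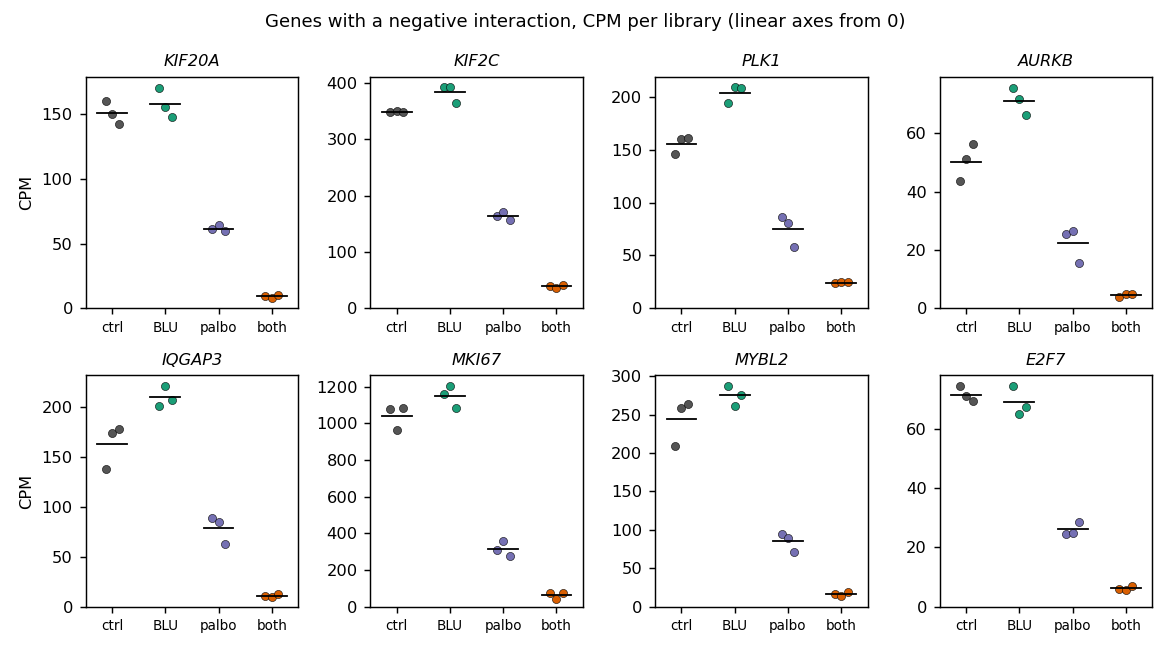
Points are the 3 libraries of each group (ctrl, control; BLU, BLU9931; palbo, palbociclib; both, the combination) and bars their means, in CPM on linear axes from 0. In each of the 8 genes the BLU9931 libraries lie above the controls or overlap them, and the combination libraries lie below the palbociclib libraries.

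Upstream of these genes, MYBL2, the MuvB partner that activates mitotic promoters, was the called gene of its list (1 of 8). It measured 209, 259 and 264 CPM in control, 287, 262 and 276 with BLU9931, 95.2, 89.8 and 71.2 with palbociclib, and 17.1, 14.3 and 19.1 with both. BLU9931 and control overlapped and the combination lay below all other libraries, for an interaction of -2.52 ± 0.20 (edgeR adjusted p = 9.45e-05). FOXM1, the other activator, varied widely within groups: 235, 292.5 and 93.5 CPM in control and 50.4, 18.8 and 56.8 with both, with an interaction of -1.04 ± 0.68 (edgeR adjusted p = 0.539). In the list of RB, E2F and G1 to S regulators, 3 of 19 were called lower (median -0.148, with 14 values below 0). The 3 were E2F7 (-2.02, edgeR adjusted p = 9.25e-05), E2F8 (-2.06) and E2F2 (-1.63). E2F7 and E2F8 are repressors that are themselves E2F targets, and E2F2 is an activator. E2F7 stood at 74.2, 70.9 and 69.1 CPM in control, 74.4, 64.8 and 67.1 with BLU9931, 24.6, 24.9 and 28.7 with palbociclib, and 5.94, 5.76 and 6.84 with both.

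E2F1 and CCNE2 (cyclin E2) had negative values that did not pass with all libraries and did so without control 1 and palbociclib 3. E2F1 measured 53.7 CPM in control 1 against 88.5 and 89.8 in the other controls, and 29.4 in palbociclib 3 against 49.3 and 49.5 in the others. Its interaction was -0.95 (edgeR adjusted p = 0.198), and -0.96 with an adjusted p of 0.00288 without those libraries. CCNE2 had -1.34 (edgeR adjusted p = 0.0729), and -1.33 with an adjusted p of 0.0015 without them.

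Of the genes of DNA replication, 11 of 53 were called lower and 0 higher (median -0.480, with 47 values below 0). The 11 included MCM10, a factor in activating the replicative helicase, at -1.34, TICRR, a replication initiation factor, at -0.96, and CDC45, a helicase subunit, at -1.41. CDC45 measured 40.8, 45.6 and 45.9 CPM in control, 44.1, 47.9 and 45.7 with BLU9931, 18.1, 18.3 and 16.4 with palbociclib, and 7.75, 6.58 and 6.38 with both. Control and BLU9931 overlapped, and the interaction had an edgeR adjusted p of 0.00118. In deoxynucleotide synthesis, 2 of 14 were called lower and 9 values were below 0. The 2 were RRM2 (the small subunit of ribonucleotide reductase, -2.09) and TYMS (thymidylate synthase, -1.99). NME1, a nucleoside diphosphate kinase that overlaps the readthrough gene NME1-NME2, was called higher (0.73, edgeR adjusted p = 0.0151). The NME1 call held in 6 of 12 fits that left out a library. In homologous recombination and Fanconi genes, 5 of 25 were called lower (median -0.736, with 23 values below 0), among them EXO1 (-1.37) and RAD54L (-1.43). CHAF1B, a subunit of chromatin assembly factor 1, was the 1 of 14 in its list, at -1.37 (edgeR adjusted p = 0.00264). TYMS overlaps ENOSF1 on the other strand.

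With all 12 libraries, the genes of the drug targets had no called interaction. FGFR4 measured 25.3, 46.2 and 50.6 CPM in control, 52.6, 54.2 and 52.2 with BLU9931, 27.4, 26.8 and 9.86 with palbociclib, and 20.7, 22.0 and 22.7 with both. Control 1 and palbociclib 3 were the low libraries of their groups, and the combination lay between palbociclib 3 and the other palbociclib libraries. The value was -0.35 ± 0.47 (edgeR adjusted p = 0.792), 0.02 with the GC offset, and -0.45 with an adjusted p of 0.0305 without both libraries. CDK4 (0.60), CDK6 (0.29), RB1 (0.19) and CCND1 (cyclin D1, 0.27) had edgeR adjusted p-values of 0.237, 0.608, 0.812 and 0.275. With the GC offset CDK4 and CCND1 passed (edgeR adjusted p = 0.0357 and 0.048) and CDK6 did not (0.116). Without control 1 and palbociclib 3, CDK6 passed (0.34, edgeR adjusted p = 0.0404) and CDK4 and CCND1 did not (0.17 and 0.0815). CCND1 measured 282, 276 and 276 CPM in control, 241, 244 and 258 with BLU9931, 452, 471 and 486.5 with palbociclib, and 508, 469 and 536.5 with both. Palbociclib raised CCND1 (log2 0.76, edgeR adjusted p = 6.8e-05), and the combination overlapped palbociclib. CDKN2C, which encodes the CDK4 and CDK6 inhibitor p18, was the 1 of 11 in the list of D cyclins, CDK4, CDK6 and CDK inhibitors, at -1.99 (edgeR adjusted p = 0.0228), and held in 5 of 12 fits that left out a library, while CDKN1A (p21) had 0.81 (edgeR adjusted p = 0.348, 0.0457 with the GC offset and 0.0766 without control 1 and palbociclib 3).

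Of 21 FGF receptor, co-receptor and ligand genes 0 were called (median -0.119), against 1.59% of all tested genes. FGFR1, a receptor of this family, had -0.47 (edgeR adjusted p = 0.488), and passed without control 1 and palbociclib 3 (-0.48, edgeR adjusted p = 0.00362) but not with the GC offset (-0.40, edgeR adjusted p = 0.343). Of 21 ERK output and feedback genes 1 was called lower (median -0.556, with 16 values below 0). That gene was PHLDA1, at 66.2, 88.4 and 99.0 CPM in control, 319, 267 and 336 with BLU9931, 239.9, 333 and 411 with palbociclib, and 66.1, 239 and 211 with both. The libraries of each drug alone all lay above the controls and the combination libraries below those of either drug alone. Combination 1 stood far below the other 2, and the value of -2.79 (edgeR adjusted p = 0.026) held in 5 of 12 fits that left out a library. DUSP6, SPRY4 and ETV4, ERK targets, had values of -0.63, -0.55 and -1.06 with edgeR adjusted p-values of 0.318, 0.153 and 0.165. Without control 1 and palbociclib 3, SPRY4 and ETV4 passed (adjusted p 0.00794 and 0.00238) and PHLDA1 did not (-2.45, adjusted p 0.0826).

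Of other receptor tyrosine kinases and ligands, 2 of 29 were called lower. EGFR was 10.2, 11.8 and 11.4 CPM in control, 11.3, 13.98 and 12.02 with BLU9931, 5.47, 6.45 and 7.07 with palbociclib, and 1.27, 2.06 and 2.09 with both. The combination libraries lay below all others, and the interaction was -1.95 ± 0.27 (edgeR adjusted p = 0.00383). IGF1R had -1.48 (edgeR adjusted p = 0.0473) and held in 4 of 12 fits that left out a library.

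The largest negative values among called protein-coding genes that reached an average of 5 CPM in some group belonged to LAMA1 and DKK2. LAMA1, a laminin chain of basement membranes, had 164, 216 and 232 counts in control, 173, 255 and 211 with BLU9931, 124, 100 and 69 with palbociclib, and 0, 2 and 8 with both. DKK2, a WNT inhibitor, measured 5.81, 5.26 and 5.10 CPM in control, 2.84, 2.99 and 2.28 with BLU9931, 5.50, 4.84 and 7.56 with palbociclib, and 0.181, 0.142 and 0.164 with both. The interaction of LAMA1 was -5.11 ± 0.58 and that of DKK2 -4.18 ± 0.33 (edgeR adjusted p = 0.000932 and 7.3e-05). NEURL1B, an E3 ubiquitin ligase of the Notch pathway, had -3.93 (edgeR adjusted p = 0.0175), with control 1 at 4.802 CPM against 25.4 and 29.9 in the other controls. C1QL1 (-3.78), FBN3, a fibrillin (-2.77), and THY1 (-2.42) were also lower, C1QL1 in 1 and THY1 in 3 of 12 fits that left out a library. Summed fibroblast markers, of which 8 of 12 were under 1 TPM in every library, were 19.8 to 20.5 TPM with both drugs. In the other groups they summed to 24.2 to 49.6 TPM. THY1 is itself among these markers. The marker FBLN1 averaged 31.3 TPM in control, 40.9 with BLU9931, 32.2 with palbociclib and 17.0 with both. COL3A1, DCN, LUM and ACTA2 reached at most 0.019, 0.127, 0.25 and 0.303 TPM in any library. The part of those markers in the values of THY1 and FBN3 was not tested. PIF1, a DNA helicase, and GTSE1, a protein made in G2 and S phase, were in no list and had -3.30 and -2.12 (edgeR adjusted p = 2.98e-05 and 7.3e-05).

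Some of the 270 genes rose with palbociclib: 34 were called higher with palbociclib against control, against 10% of all tested genes. Of these 34, 21 were also called lower in the combination than with palbociclib, a position that a negative interaction favours. The share of all tested genes that met both conditions was not counted, so the 21 are a description. Among them were genes with the values below. F13A1, which encodes the A subunit of coagulation factor XIII, was the strongest by p. It measured 36.9, 34.4 and 34.5 CPM in control, 53.7, 52.2 and 54.0 with BLU9931, 122, 124 and 142 with palbociclib, and 47.8, 46.4 and 45.2 with both. Each drug raised it, with log2 changes of 0.60 and 1.87 (edgeR adjusted p = 0.0381 and 1.66e-06), and the combination lay below the BLU9931 libraries. The interaction was -2.07 ± 0.14 (edgeR adjusted p = 2.98e-05). NDRG1, a hypoxia-responsive gene, measured 2.27, 2.73 and 2.78 CPM in control, 6.37, 4.55 and 3.94 with BLU9931, 3.96, 4.92 and 4.41 with palbociclib, and 1.31, 1.92 and 2.32 with both. The libraries of each drug alone lay above the controls, and those of both drugs below either drug alone (-2.17, edgeR adjusted p = 0.00725). OAS3, an interferon-induced gene, was the 1 of 23 in its list, at -1.17 (edgeR adjusted p = 0.00798), though palbociclib lowered it.

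The 58 genes with a positive interaction had median single effects below 0 and a median joint effect above 0. Their median log2 change was -0.466 with BLU9931, -0.325 with palbociclib and 0.313 with both. Both single effects were below 0 in 37 of the 58, and the combination libraries all lay above the other 9 in 28, against 5.87% of all tested genes. In 34 the BLU9931 libraries all lay below the controls and the combination libraries all above the palbociclib libraries, against 1.14% of all tested genes. A positive interaction favours these positions, and the counts are again a description. In 25 the combination stayed below control, so a positive value there is a smaller fall than the product of the single effects. The linear CPM contrast was positive in all 58.

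NRF2 targets, genes of the oxidative stress response, had 4 of 26 called higher (15.4%, against 0.281% of all tested genes) and 0 called lower, with a median of 0.38. AKR1C1, an aldo-keto reductase, measured 899, 861 and 895 CPM in control, 842, 775.5 and 812 with BLU9931, 734, 707 and 699 with palbociclib, and 1203, 1221 and 1235 with both. Either drug alone left every library below the controls, and both together put every library above them. Its interaction was 0.90 ± 0.09 (edgeR adjusted p = 0.000413). AKR1C2, its close homologue with which reads can be shared, had 0.64 (edgeR adjusted p = 0.00926), SRXN1 (sulfiredoxin) 0.74 (0.0248) and NQO1, a quinone reductase, 0.50 (0.0476). SRXN1 held in 3 and NQO1 in 1 of 12 fits that left out a library, and the list's count was 1 to 12 over the alternatives.

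Among the other genes with a positive value, ODC1, the first enzyme of polyamine synthesis, was 363, 330.5 and 323 CPM in control, 242, 217 and 243 with BLU9931, 129.7, 139 and 144 with palbociclib, and 171.5, 185.5 and 172 with both. Each drug lowered ODC1 (log2 -0.53 and -1.30), and the combination lay between the single drugs, for an interaction of 0.90 ± 0.12 (edgeR adjusted p = 0.00382). HSPA8, the constitutive HSP70 chaperone (0.66), its cochaperone BAG1 (1.12) and LRRC59, an endoplasmic reticulum protein (0.68), had edgeR adjusted p-values of 0.00794, 0.00956 and 0.00784. In all 3 genes the combination libraries lay above palbociclib and the BLU9931 libraries below control. ENTPD3, an ectonucleotidase, rose with palbociclib and more with both: 20.3, 24.6 and 23.2 CPM in control, 17.7, 19.6 and 19.1 with BLU9931, 71.9, 75.1 and 70.2 with palbociclib, and 113, 112 and 116 with both. Its interaction was 0.92 (edgeR adjusted p = 0.00789). ZNF678, a zinc finger gene, measured 2.98, 3.15 and 3.03 CPM in control, 3.06, 3.02 and 3.83 with BLU9931, 2.25, 2.52 and 2.87 with palbociclib, and 13.1, 9.14 and 8.28 with both, with no overlap between the combination and the rest, and had 1.89 (edgeR adjusted p = 0.00579).

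**Figure D5:**
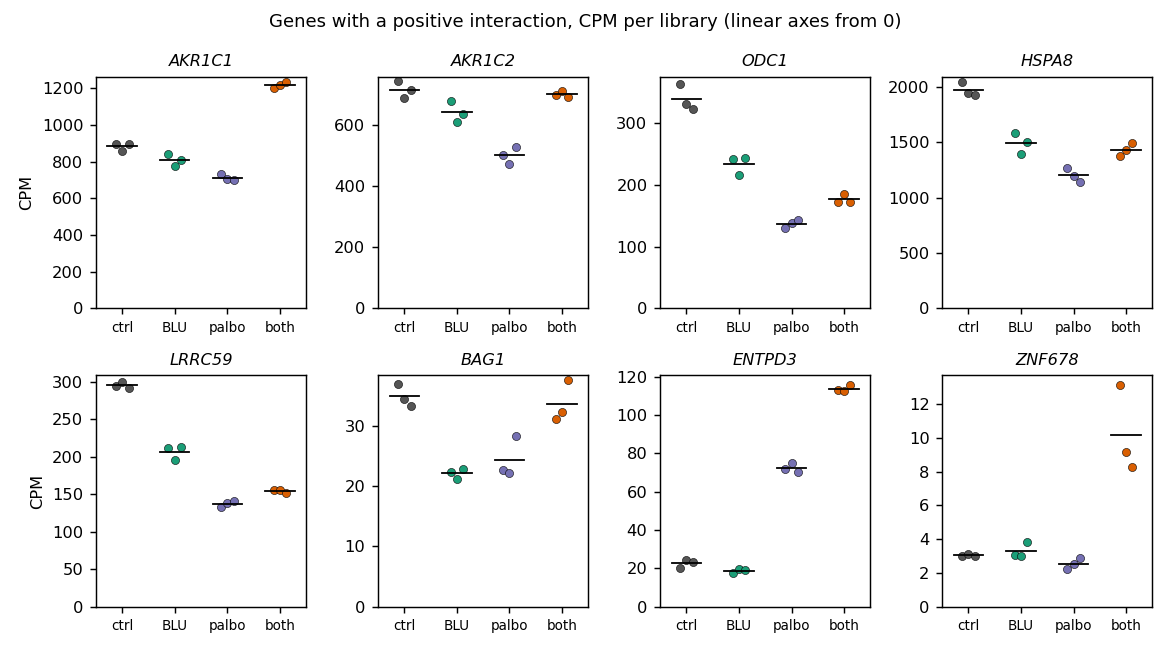
Points are the 3 libraries of each group (ctrl, control; BLU, BLU9931; palbo, palbociclib; both, the combination) and bars their means, in CPM on linear axes from 0. The combination libraries of AKR1C1, ENTPD3 and ZNF678 lie above all others, while in ODC1, HSPA8 and LRRC59 they lie between palbociclib and control.

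Several of the largest positive values lost their call when single libraries were left out. SENP3-EIF4A1, a readthrough gene that shares its sequence with SENP3 and EIF4A1 so that reads could be split between them, had 4.47 ± 0.90 (edgeR adjusted p = 0.0329), with control libraries at 144, 117 and 39.6 CPM and combination libraries at 18.9, 38.9 and 119. PSME3, a proteasome activator subunit, had 2.91 (edgeR adjusted p = 0.0329), with palbociclib libraries at 83.6, 220.0 and 67.1 CPM. Both held in 3 of 12 fits that left out a library, as did POLR3F, an RNA polymerase III subunit, and SMOC1 and LY6G5C. ZNF589 (2.19) held in all 12, and KRT20, an intestinal keratin (1.38), in 4.

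Lists with 0 called genes included MYC and ribosome biogenesis (39 tested), nuclear oxidative phosphorylation (35), autophagy and lysosome genes (31), the unfolded protein response with ATF4 (25), p53 targets (24), cholesterol synthesis (24), BCL2 family and caspases (24), and MHC class I presentation (18). Over all tested genes 1.59% were called, so a count of 0 is near that share for lists of this size. The MYC and ribosome biogenesis list had a median of 0.26. It went to 13 called higher and 1 called lower with the GC offset, and to 11 and 3 without control 1 and palbociclib 3. MYC itself ranged from 2.83 to 35.1 CPM among the controls, and its value was 1.03 ± 1.33 (edgeR adjusted p = 0.783). Summed neuroendocrine markers, of which 4 of 16 were under 1 TPM in every library, were 909 to 983 TPM in control. They were 941 to 1044 TPM with BLU9931, 1266 to 1302 with palbociclib and 1484 to 1541 with both drugs. The members did not move together. From control to both drugs, mean CHGB went from 279 to 675 TPM and UCHL1 from 475 to 653, while ENO2 went from 46.4 to 21.2 and NCAM1 from 21.2 to 5.82. Of the 13 tested, 0 had a called interaction (median -0.012). SOX2, the lineage factor of squamous lung cancer, had -0.21 (edgeR adjusted p = 0.366).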

How the data were processed

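Poly(A) RNA of 12 libraries, 3 for each of 4 groups, was measured. The deposited table gives a count, a TPM and an FPKM value per gene and library, as labelled per the file headers, with no word on how the authors made them. Tools listed in the submitters' processing notes are StringTie 1.3.3b, bedtools 2.26.0, HISAT2 2.0 and Trimmomatic 0.36, with no roles, and the build listed is that of a mouse, mm9, although the gene IDs are human: 57836 of 58174 are in GENCODE 29, on GRCh38. Use of strand is not given in the sources used here. Further named genes overlap a gene that reached a higher group mean. They include RAD54L (LRRC41), CHAF1B (MORC3), CENPA (SLC35F6), CCNE2 (INTS8), ETV4 (DHX8) and SMOC1 (RPL7AP6). The part of these overlaps in the values was not tested. The table has 0 columns of other samples.

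The count model was edgeR 4.0.16 in R 4.3.3 (filterByExpr, TMM scaling, robust quasi-likelihood fit of 12 libraries with a term per group, 8 residual degrees of freedom, common dispersion 0.0518). The interaction used the two-sided quasi-likelihood F-test, with Benjamini-Hochberg adjustment over 20612 genes and a threshold of 0.05. Standard errors are the log2 value over the square root of F. The scripts were tested on simulated data. Limma 3.58.1, DESeq2 1.42.0, Python 3.11.15 with pandas 2.3.3 and matplotlib 3.10.9 were also used. Replicates differed by more than counting error (chi-square per degree of freedom 18.6 to 59.3), and intervals of counting error are therefore not given.

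Alternatives were RLE or library-total scaling, DESeq2, limma-voom, other filters, log2(TPM + 1) and log2(FPKM + 1) with limma, a replicate block, a GC offset (loess, span 0.5), both together, and leaving out control 1 with palbociclib 3 or each library in turn. Same-numbered libraries showed no common deviation, and the main fit was left unpaired. This does not tell whether same-numbered libraries shared a culture or batch.

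The 40 gene lists (906 genes), the tests and the members were chosen with earlier results of these data known. Named genes were a panel (CCND1, CCNE2, CDK4, CDK6, CDKN1A, DUSP6, E2F1, ETV4, FGFR1, FGFR4, FOXM1, MKI67, MYBL2, MYC, RB1, SOX2 and SPRY4), the 10 largest values in each direction among called protein-coding genes that averaged 5 CPM or more in some group, the 10 smallest p-values in each direction, and up to 3 called members of each list by p. NQO1 was named beside its list after its values were seen. Clone names were passed over, and 1 gene that the rule names is not reported here. Promoters come from RefSeq (GRCh38.p14).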

Additional observations from a re-analysis of the deposited data

Results flagged for a closer look

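The effect of BLU9931 differed with and without palbociclib by the interaction test in 270 genes that were lower and 58 that were higher. Of the 83 named genes 68 passed this test, and in 33 of them the BLU9931 libraries lay on one side of all controls while the combination libraries lay on the other side of all palbociclib libraries.

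In 19 of the 33, BLU9931 libraries lay above control and combination libraries below palbociclib (1.29% of all tested genes), positions that a negative interaction favours. The interaction was -3.93 for NEURL1B, -3.78 for C1QL1, -3.30 for PIF1, -3.21 for IQGAP3, -2.79 for PHLDA1, and -2.77 for both FBN3 and AURKB. It was -2.46 for MKI67, -2.42 for THY1, -2.30 for CENPA, -2.19 for KIF2C, -2.17 for NDRG1, -2.12 for GTSE1 and -2.07 for F13A1. It was -2.00 for PLK1, -1.76 for CIT, -1.43 for RAD54L and for CDCA8, and -1.11 for NCAPD2. Of 12 fits that left out a library, C1QL1 kept its call in 1, THY1 in 3, PHLDA1 in 5 and NEURL1B in 7. Of these genes, F13A1 was the one for which BLU9931 alone also passed its own test.

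In the other 14, BLU9931 libraries lay below control and combination libraries above palbociclib, as in 1.14% of all tested genes. The value was 0.60 for HK2, a glycolytic kinase, 0.64 for AKR1C2, 0.66 for HSPA8, 0.68 for LRRC59, 0.73 for NME1, 0.74 for SRXN1 and 0.78 for LANCL2. It was 0.90 for both ODC1 and AKR1C1, 0.92 for ENTPD3, 1.12 for BAG1, 1.87 for SMOC1, 1.97 for C11orf57 and 2.91 for PSME3. BLU9931 alone passed its own test for LRRC59 and ODC1. Of 12 fits that left out a library, HK2 and C11orf57 kept their call in 2 each, SRXN1, SMOC1 and PSME3 in 3 each, and NME1 in 6.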

How the results depend on the processing

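The 270 lower and 58 higher genes became 612 and 241 with DESeq2, 941 and 978 with the GC offset, 745 and 661 with the GC offset and replicate block, and 1136 and 981 without control 1 and palbociclib 3. The higher count was 34 with no filter on low counts, 32 with log2(TPM + 1), 35 with log2(FPKM + 1) and 31 at a log2 value of at least 1. With the replicate block, which has fewer residual degrees of freedom, 130 were lower and 12 higher, 129 and 12 of them the same genes. The deviations of same-numbered libraries from their group means correlated between -0.364 and 0.168. Those of control 1 and palbociclib 3 followed GC content, so these correlations cannot tell whether same-numbered libraries shared a culture or batch. Leaving out 1 library gave 135 to 600 lower and 13 to 386 higher genes, the highest of each without palbociclib 3 and the lowest without BLU9931 replicate 1. Across all 24 alternatives 90 of the 270 and 7 of the 58 kept their call, and across the 12 fits without 1 library 120 and 10 did. Without control 1 and palbociclib 3, BLU9931 against control called 293 higher and 260 lower genes (29 and 8 with all libraries), and the combination against palbociclib 817 and 1226 (189 and 599). None of the 83 named genes with a call reversed. With 3 libraries per group, a p that misses the threshold does not show that effects multiply.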

Other observations

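Of the 270 genes with a negative interaction 183 were in no list. The genes named in this section were chosen after their values were seen, so they support no statement on a group. Several encode matrix or cell surface proteins. COL4A2, a basement membrane collagen chain, measured 26.8, 40.4 and 38.1 CPM in control, 36.7, 40.1 and 37.0 with BLU9931, 27.2, 25.7 and 18.7 with palbociclib, and 4.31, 3.95 and 4.81 with both, and its interaction was -2.56 (edgeR adjusted p = 0.000481). LTBP1, which binds latent TGF-beta, had values between 29.7 and 37.1 CPM in the 9 libraries without both drugs and 15.8, 16.6 and 18.8 with both, and an interaction of -1.13 (edgeR adjusted p = 0.00378). NID2 (nidogen 2, -1.37), SPOCK1 (-1.06) and GPC4 (a glypican, -0.73) also passed, and each of these 5 genes held in all 12 fits that left out a library. THBS1 (thrombospondin 1, -0.63) passed as well and held in 3 of them.

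Developmental transcription factors were among the called genes too: PAX6 at -1.36, LHX2 at -1.92 and LHX1 at -0.84 (edgeR adjusted p = 0.00589, 0.00824 and 0.0154). PAX6 measured 18.2, 16.6 and 18.6 CPM in control, 22.2, 21.5 and 19.5 with BLU9931, 13.04, 9.40 and 11.7 with palbociclib, and 5.57, 4.83 and 5.40 with both. NMUR2, a neuromedin U receptor, rose with palbociclib (41.9 to 48.3 CPM against 8.41 to 10.4 in control) and less with both (22.8 to 24.4), while NMU, its ligand, was 10.3 to 12.7 CPM in control, 4.96 to 6.30 with palbociclib and 1.41 to 1.85 with both. Their interactions were -1.10 and -1.87 (edgeR adjusted p = 0.00641 and 0.00117).

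One non-coding gene, AC012321.1, had 731, 390 and 873 counts in the palbociclib libraries and exactly 1 count in each of the other 9. How the counts were made is not given in the sources used here, and its part in this pattern was not tested. LPL, which encodes lipoprotein lipase, went from 33.2 to 38.4 CPM in control to 1.31 to 1.86 with both drugs (interaction -1.81, edgeR adjusted p = 0.00504). That fall includes the single-drug effects, and the interaction is only the part beyond their product.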
